A study of Mus musculus with 18 samples.

Results

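In the coding joins of a recombination substrate, 513 junctions led from the bait side of the break back into the bait side itself, read in the opposite direction. They are called inverted-bait joins here. A join was taken into the set when its prey lay on the substrate, on the plus strand, with the first prey base from 7 bp before to 657 bp after the first coding base of the bait side. The set held 513 of 30937 junctions in 12 libraries, and 513 of the 9015 junctions with prey on the substrate. The choice used strand and position and no other measured value. The set was proposed as joins of the bait coding end, but the bait end lay more than 20 bp inside the coding side in 91.7% ± 6.30 (SD, n = 12 libraries) of the joins per library. The joins are therefore called by their position and not by an end.

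The cells were mouse B cells transformed with v-abl, of strain 129, that carried an integrated pMX-INV substrate with 1 pair of recombination signals. Coding joins were read by HTGTS, in which a biotinylated primer on one side of the break (the bait) is extended across whatever was joined to it (the prey). The groups were wild type, CtIP A/A, CtIP A/A DNA-PKcs -/- and DNA-PKcs -/-, each with 1 library from cells arrested in G1 and 2 from cells arrested in G2. G1 cells had STI571, an Abl kinase inhibitor that arrests these cells and induces RAG, at 3 µM for 48 or 72 h. G2 cells had 3 µM STI571 for 24 h and then 10 µM RO3306, a CDK1 inhibitor, for 48 h. All libraries were digested with BstBI to remove unrearranged substrate. Nothing in the labels tells whether a genotype's libraries are independent cultures or lines. The p-values therefore reflect only the variation among these libraries, which may be technical, and genotype cannot be told apart from cell line. Junction tables hold no check of the genotypes or of B cell markers. The 6 samples with I-PpoI breaks are not analysed here.

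RAG cuts between a recombination signal and the flanking coding sequence and leaves the coding end as a sealed hairpin. DNA-PKcs and the nuclease Artemis open that hairpin before classical end joining, and CtIP promotes resection of ends. A hairpin links the top and the bottom strand of the same DNA, and one that is opened away from its apex leaves a few palindromic bases at the join.

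Positions are given in bp from the first coding base of the bait side, which is 0, so that the signal heptamer next to it, CACTGTG, covers -7 to -1. The bait reads started at 178 and ran down toward the heptamer. The nested primer that sets this start is given because it fixes where a bait read begins on the substrate, at 178.
nested primer: caaagaccccaacgagaagc
Of the 513 reads, 443 (86.4%) started with this sequence without a mismatch. In each join the bait end is the last substrate base of the bait alignment and the prey start is the first base of the prey alignment. The position of either is also its deletion, with positions inside the heptamer or beyond counted as 0 bp. The bait end lay in the heptamer or beyond it in 25 of the 513 joins, so these bait alignments ran past the site where RAG cuts. For comparison, joins to the partner coding end, the ordinary product of the substrate, were taken from the same window, -7 to 657, around the first coding base of the partner side, and there were 6873 of them.

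Per library the set was small. The numbers of inverted-bait joins in wild type were 73 in G1, 36 in G2 replicate 1 and 7 in G2 replicate 2. In CtIP A/A they were 28, 32 and 34 in the same order. The DNA-PKcs -/- libraries held 71, 42 and 22, and the CtIP A/A DNA-PKcs -/- libraries 80, 38 and 50. The libraries held from 289 to 7068 junctions in all and 185 to 1855 on the substrate. The wild type G2 replicate 2 library, with 7 joins, gave the least precise values, and the 95% Wilson intervals cover counting error only. Read names put the first G2 replicate of each genotype in one sequencing run and the other 8 libraries in another.

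As a share of the junctions on the substrate, inverted-bait joins made up 6.21%, 9.73% and 3.78% in wild type, for G1, G2 replicate 1 and G2 replicate 2. The 95% Wilson interval for the 7 joins of the last was 1.84% to 7.60%. The CtIP A/A shares were 5.27%, 9.07% and 9.14%. The DNA-PKcs -/- shares were 5.13%, 4.94% and 3.92%, and those of CtIP A/A DNA-PKcs -/- were 4.31%, 8.30% and 5.43%. The mean of the 12 libraries was 6.27% ± 2.18 (SD), with 7.20% ± 2.45 (n = 6) in the libraries with DNA-PKcs and 5.34% ± 1.55 (n = 6) in those without it, and these groups overlapped. The 4 libraries of the first run averaged 8.01% ± 2.13 and the other 8 averaged 5.40% ± 1.72. As a share of all junctions, joins to the genome included, the values were 4.46% ± 1.94 with and 1.21% ± 0.323 without DNA-PKcs (n = 6 each). The libraries without DNA-PKcs held relatively more joins to the genome, which lowers this share. Of all junctions, 1176 of 2993 lay on the substrate in wild type G1, the lowest part with DNA-PKcs. The highest part without it was 920 of 2841, in CtIP A/A DNA-PKcs -/- G2 replicate 2.

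**Figure D1:**
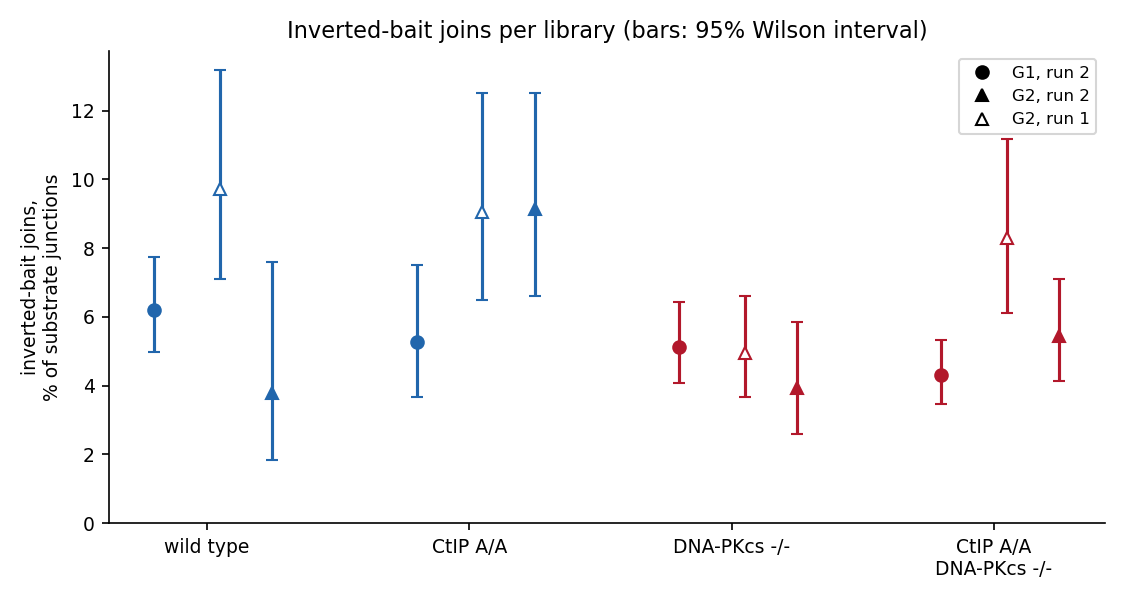
Inverted-bait joins as a percent of the junctions on the substrate (vertical axis) in each of the 12 libraries, by genotype, with circles for G1, triangles for G2, open triangles for the first G2 replicates (run 1), blue and red for libraries with and without DNA-PKcs, and 95% Wilson intervals. The shares ranged from 3.78% to 9.73%, and the libraries with and without DNA-PKcs overlapped.

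Most joins were far from the coding end on both sides. The median deletion on the prey side was 59.7 bp ± 10.1 (SD, n = 12 libraries), from 47 to 73 bp. The median deletion on the bait side was 109 bp ± 15.9. Averaged over libraries, 39.4% of prey starts lay at 20 to 49, 32.4% at 50 to 99 and 10.4% at 100 to 149. By the same average the heptamer held 2.25% and the first 20 coding bases 4.65% of them. The bait ends lay deeper, with, again per library, 55.3% at 100 to 149 and 33.5% at 50 to 99, while 3.87% were in the first 20 coding bases.

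By geometry, a grouping made after the positions had been seen, the joins fell into 3 kinds. The name folded is used only for the geometry of the commonest kind, 440 of 513 (85.8%), in which the prey started below the bait end and at or below 149, with the bait end above 19. The 17 tip joins had both ends at or below 19, that is, within the first 20 coding bases or the signal. The 56 joins past the primer had their prey start above 178, outside the segment that the bait read covers. No prey start lay from 150 to 178.

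**Figure D2:**
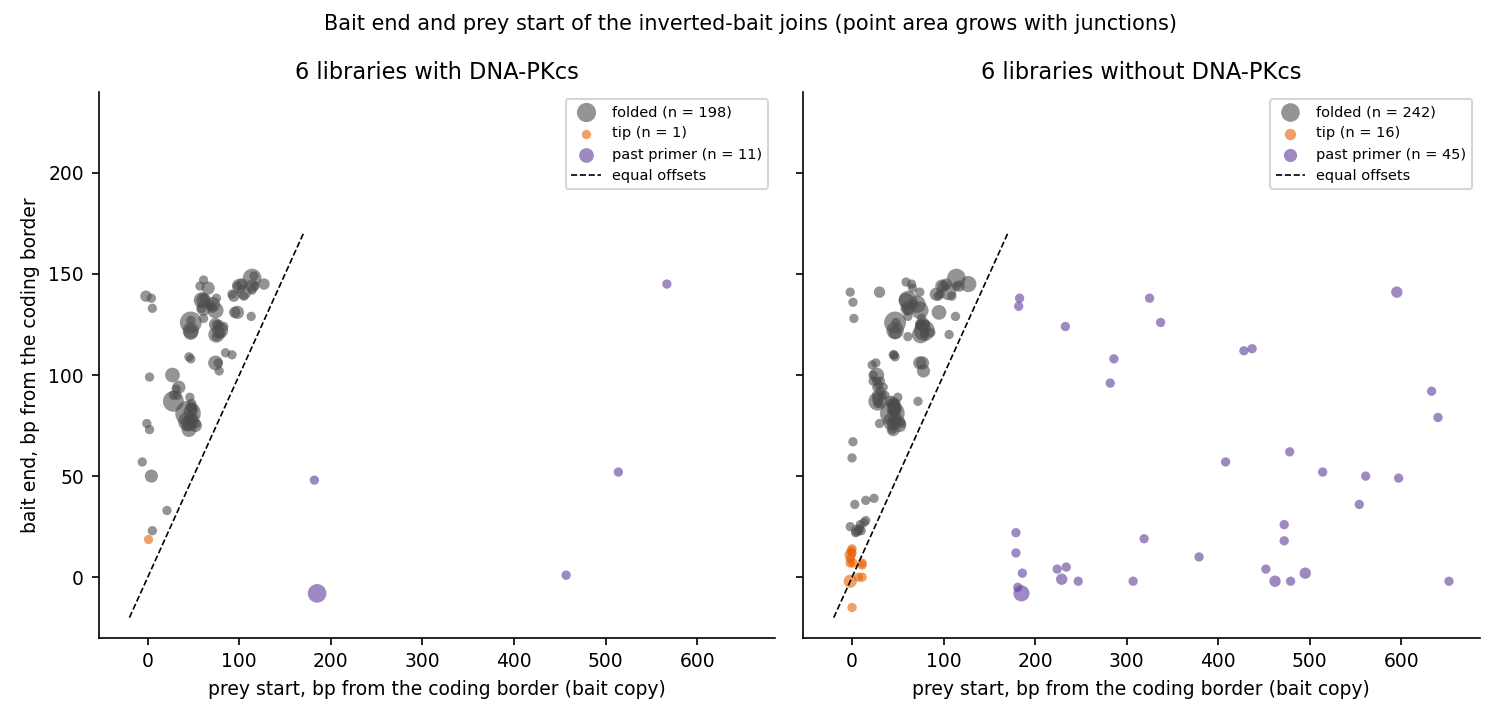
Bait end (vertical axis, bp from the coding border) against prey start on the inverted copy (horizontal axis, bp from the same border), left for the 6 libraries with DNA-PKcs and right for the 6 without it, with point area growing with the number of junctions. The folded joins (198 left, 242 right) lie above the line of equal offsets, tip joins number 1 and 16, and joins past the primer 11 and 45.

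Folded joins had a median prey deletion of 50 bp and a median bait deletion of 121 bp. The median distance between prey start and bait end was 44.5 bp (quartiles 34 and 67). In 421 of the 440 (95.7%) the bait end was above 57. The prey alignment then ran up over the stretch between its start and the bait end, which the bait read had not covered, and ended a median of 6 bp past the bait end (quartiles 1 and 10). In 327 (74.3%) it ended 0 to 15 bp past the bait end, and in 0 of 440 did it reach beyond 178. Across libraries the median of this overrun was 4.5 to 7 bp. After the prey alignment came a median of 20 bases of unaligned read. In 261 of the 513 joins they were 20 bases exactly, with the same sequence in 244, and in 26 they were more. The bases from 0 up to the prey start were in neither alignment. A second copy of the segment and an inversion of the stretch within 1 copy cannot be told apart from such reads.

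**Figure D3:**
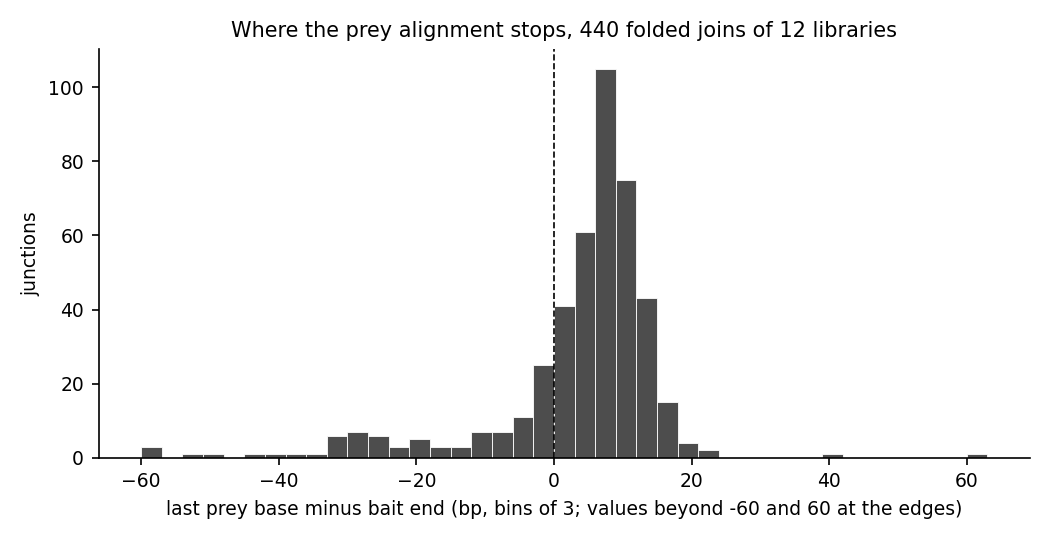
Number of folded joins of the 12 libraries together (vertical axis) by the last prey base minus the bait end in bp (horizontal axis, values beyond the axis put in the edge bins). The counts pile up just past 0, where the dashed line stands, with a median of 6 bp and 327 of 440 joins at 0 to 15 bp.

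The reads themselves were short. The median length of reads with an inverted-bait join was 145 bases ± 8.80 against 245 ± 7.38 for partner joins in the same 12 libraries. Their bait alignments had a median of 69.9 bp ± 15.8 against 165 ± 11.5, and their prey alignments 46.2 bp ± 3.33 against 61.4 ± 7.87. The part of library construction or read length in the pattern of positions was not tested.

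Tip joins are the form nearest to a coding end joined to its own inverted copy. Of the 17, 16 came from libraries without DNA-PKcs, 9 of them in CtIP A/A DNA-PKcs -/- G1, 5 in its G2 replicate 2, and 1 each in DNA-PKcs -/- G1 and G2 replicate 1. The other was in CtIP A/A G2 replicate 1. The 12 libraries were uneven, and 14 of the 17 were in 2 libraries of 1 genotype, so no comparison was drawn. An insertion was present in 9, homology of 1 bp or more in 7, and 1 was direct. Joins past the primer had a median bait deletion of 7.5 bp and a median prey deletion of 313 bp, the reverse of the folded joins. They made up 6.08% ± 4.33 of the inverted-bait joins per library with DNA-PKcs and 15.7% ± 5.15 without it (n = 6 each). Of the 56, 13 had an insertion, 10 were direct and 7 had 4 bp or more of homology. In 21 of them the bait end lay in the heptamer or beyond it. The commonest of them joined bait end -8, inside the signal, to prey start 185 with 2 bp of homology, 12 times in 9 libraries, and all 12 prey alignments ended at 212.

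The deletions on the 2 sides were seldom alike. The median difference between them was 47.8 bp ± 7.14 (n = 12 libraries), from 37 to 65 bp. The prey was less deleted than the bait in 449 joins (87.5%) and more deleted in 61. Of 513 joins, 5 were symmetric within 5 bp and 8 within 10 bp. In 3 of the 5 both ends were at -2, in the heptamer, with 4 bp of overlap. They came from CtIP A/A DNA-PKcs -/- G1 and G2 replicate 2 and DNA-PKcs -/- G1. The 4 bases at -2 to 1, TGCA, read the same on either strand, so a turn within them cannot be placed to the base. The other two, both in CtIP A/A DNA-PKcs -/- G1, had prey start 11 with bait ends 7 and 6 and 1 inserted base each. Within folded joins the deletions rose together, with Spearman's rho of 0.729 ± 0.0826 over libraries (0.610 to 0.880), a description in which the rule that the prey starts below the bait end takes part. Over all inverted-bait joins rho was 0.356 ± 0.199, and over all partner joins it was 0.288 ± 0.213. With DNA-PKcs the values were 0.459 ± 0.191 and 0.122 ± 0.135, and without it 0.253 ± 0.159 and 0.454 ± 0.127 (n = 6 each).

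The same pairs of ends recurred. The 513 joins held 209 distinct pairs of prey start and bait end. Of these, 63 were found in 2 or more libraries, 48 of them both with and without DNA-PKcs, 56 in both phases and 50 in both runs. The 24 pairs found in 6 or more libraries held 258 joins (50.3%), and 21 such pairs held 47.7% when the wild type G1 library was left out. Partner joins, with 2892 distinct pairs, had 31.1% of their joins in the 172 pairs found in 6 or more libraries. By pairs found in 2 or more libraries the sets were close, with 71.3% of inverted-bait and 72.6% of partner joins. By that measure the inverted-bait share was the higher in 4 of 12 libraries. The partner set had more joins in each library, and no test was made. The commonest pair, prey start 44 with bait end 81, was found in all 12 libraries, 27 times. Its counts were 5, 1 and 1 in wild type G1, G2 replicate 1 and G2 replicate 2, then 2, 2 and 3 in CtIP A/A. In DNA-PKcs -/- they were 2, 3 and 2, and in CtIP A/A DNA-PKcs -/- 2, 2 and 2. Every library thus held it, and its share of the inverted-bait joins was 6.41% ± 3.37. Its 27 prey alignments ended at 11 different positions from 80 to 98, over the 12 libraries together. This count does not tell whether reads within a library were copies of 1 fragment. The pair 44 with 77 was also found in all 12 libraries (15 joins), with 8 bp of overlap. Prey start 44 had 56 joins in all and 13.6% ± 9.76 of the joins per library, and 47 had 45 joins and 9.41% ± 4.01. Prey starts 61 (25 joins), 74 (24) and 28 (22) followed. By mean share per library, the leading bait ends were 81 (27 joins), 126 (22), 137 (20), 122 (25) and 77 (17).

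Many of the joins, the commonest pair among them, lay at short inverted repeats of the substrate. Such a repeat is a run of bases whose reverse complement occurs again farther along. The substrate sequence from 0 to 178 was built from the bait reads. It held 51 exact inverted repeats of 4 bp or more, of which 40 could be reached, since no bait end in any library lay above 149. A join was placed at a repeat when its prey start lay within 2 bp of the first base of the lower arm and its bait end within 2 bp of the first base of the upper arm, and 22 repeats had 1 or more such joins. The longest, ACAAGT at 28 to 33 with ACTTGT at 87 to 92, had 20 joins in 11 libraries. GACCG at 47 to 51 with CGGTC at 126 to 130 had 22 joins in 12 libraries. GCCGC at 79 to 83 with GCGGC at 122 to 126 had 19 in 11 libraries, and GCGAC at 45 to 49 with GTCGC at 73 to 77 had 9 in 8 libraries. The other repeat of 5 bp within reach, ATGGT with ACCAT, had 0 joins. The repeat with the most joins was only 4 bp long, AGCG from 44 with CGCT from 81, with 32 joins in 12 libraries. The pair 44 with 77 was not placed at a repeat by this rule. In all 184 joins (35.9%) were placed at a repeat. Of the folded joins that could be placed, 184 of 434 (42.4%) were, against 8.37% of the 11175 position pairs from 0 to 149. Those pairs were all counted alike and were not matched to the joins in distance or depth. The 2 shares are therefore a description, and no test was made. A join at the exact first bases of both arms has overlapping alignments by construction, while one up to 2 bp away need not. The placement at repeats is therefore not separate from the homology below.

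Short homology was the usual form of these joins. Per library, 4 bp or more of overlap between the bait and prey alignments was found in 52.1%, 61.1% and 85.7% of the wild type joins, for G1, G2 replicate 1 and G2 replicate 2. The last is 6 of 7 joins. In CtIP A/A it was 67.9%, 65.6% and 70.6%. In DNA-PKcs -/- it was 47.9%, 54.8% and 54.5%, and in CtIP A/A DNA-PKcs -/- 45.0%, 57.9% and 40.0%. The libraries with DNA-PKcs were mostly the higher ones, with an overlap at wild type G1. The single commonest length was 4 bp, with 22.1% ± 11.6 of joins with and 18.1% ± 6.12 without DNA-PKcs. The overlaps can hold mismatches: of 277 joins with 4 bp or more, 149 (53.8%) matched throughout and 265 (95.7%) held an exact run of 4 bp or more.

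Insertions, bases between the alignments that match neither, were found in 13.7%, 5.6% and 14.3% of the wild type joins, the last being 1 of 7. They were found in 3.6%, 3.1% and 2.9% in CtIP A/A, 1 join in each library. In DNA-PKcs -/- they were found in 15.5%, 14.3% and 18.2%, and in CtIP A/A DNA-PKcs -/- in 17.5%, 15.8% and 24.0%. The 69 insertions had a median of 3 bp, 42 were 1 to 3 bp long, 12 were over 10 bp and the longest was 27 bp. Direct joins, with neither overlap nor insertion, numbered 19.

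**Figure D4:**
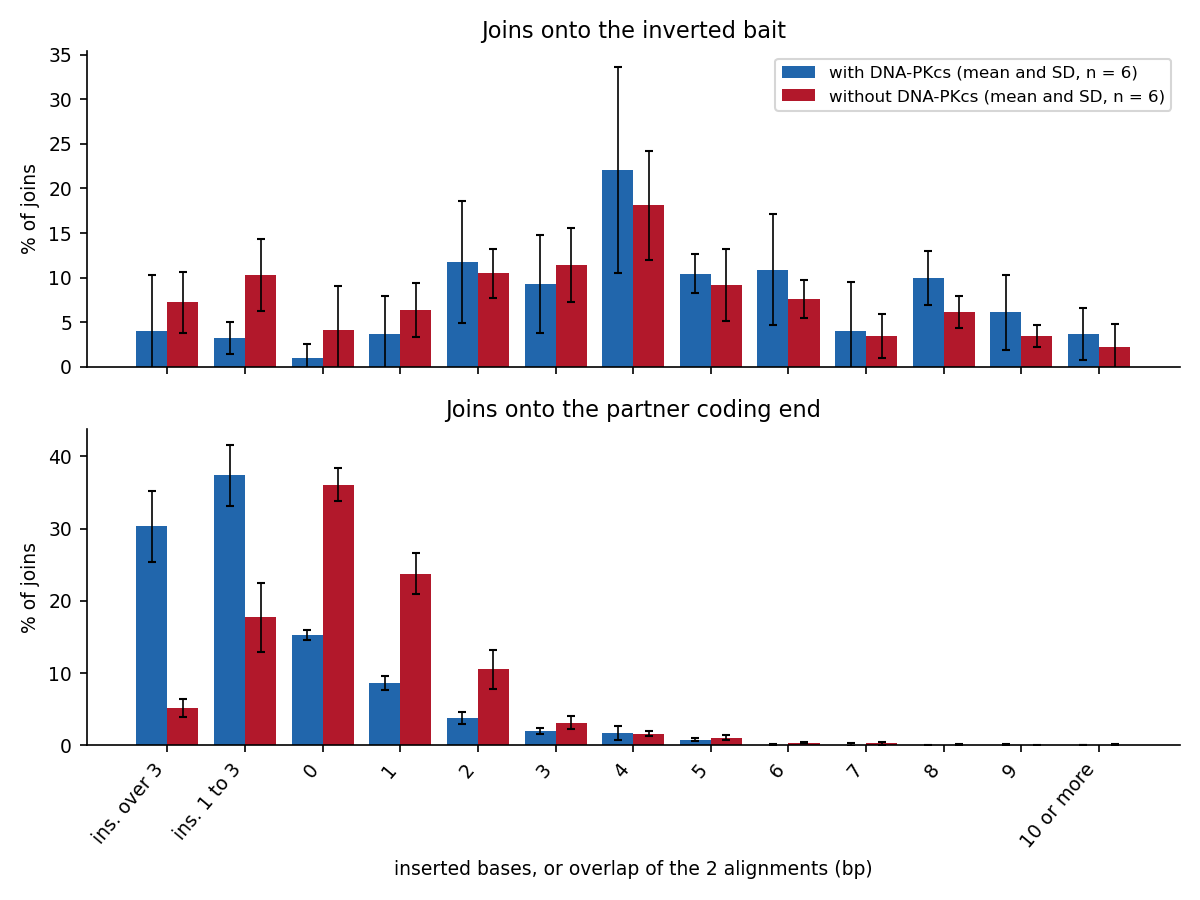
Percent of joins (vertical axes, mean and SD over 6 libraries) by insertion or overlap length in bp (horizontal axis), for inverted-bait joins (top) and partner joins (bottom), with (blue) and without (red) DNA-PKcs. Inverted-bait joins centre on 4 bp of overlap in both genotype classes, while partner joins have mostly insertions with DNA-PKcs (67.6%) and mostly 0 or 1 bp without it.

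Against the partner joins of the same library, 6 measures that are computed without the prey position were tested. The test was an exact sign-flip permutation over the 12 within-library differences (two-sided, smallest possible p = 0.000488), with Benjamini-Hochberg adjustment over the 10 measures computed. The median bait deletion was 109 against 14.1 bp, higher in 12 of 12 libraries (adjusted p = 0.000543, exact permutation). Bait deletions over 20 bp were 91.7% against 32.4%, also higher in 12 of 12 (adjusted p = 0.000543, exact permutation). Joins with 4 bp or more of homology were 58.6% against 3.14% and joins with 1 bp or more 85.1% against 29.0%, again in 12 of 12 libraries (adjusted p = 0.000543, exact permutation). Direct joins were 2.56% against 25.7%, lower in 12 of 12 (adjusted p = 0.000543, exact permutation). Insertions were 12.4% against 45.3%, lower in 11 of 12 libraries (adjusted p = 0.000977, exact permutation). The exception was DNA-PKcs -/- G2 replicate 2, with 18.2% against 16.4%. The set was chosen by prey position, and the bait deletions are tied to it. Outside the tip joins, every prey start at or below 178 lay below its bait end. The tests of bait deletion are therefore not separate from the choice of the set. Measures that use the prey position itself are given as a description. The median prey deletion was 59.7 against 10.9 bp, prey deletions over 20 bp were 93.1% against 26.3%, and joins symmetric within 5 bp were 0.597% against 32.6%.

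**Figure D5:**
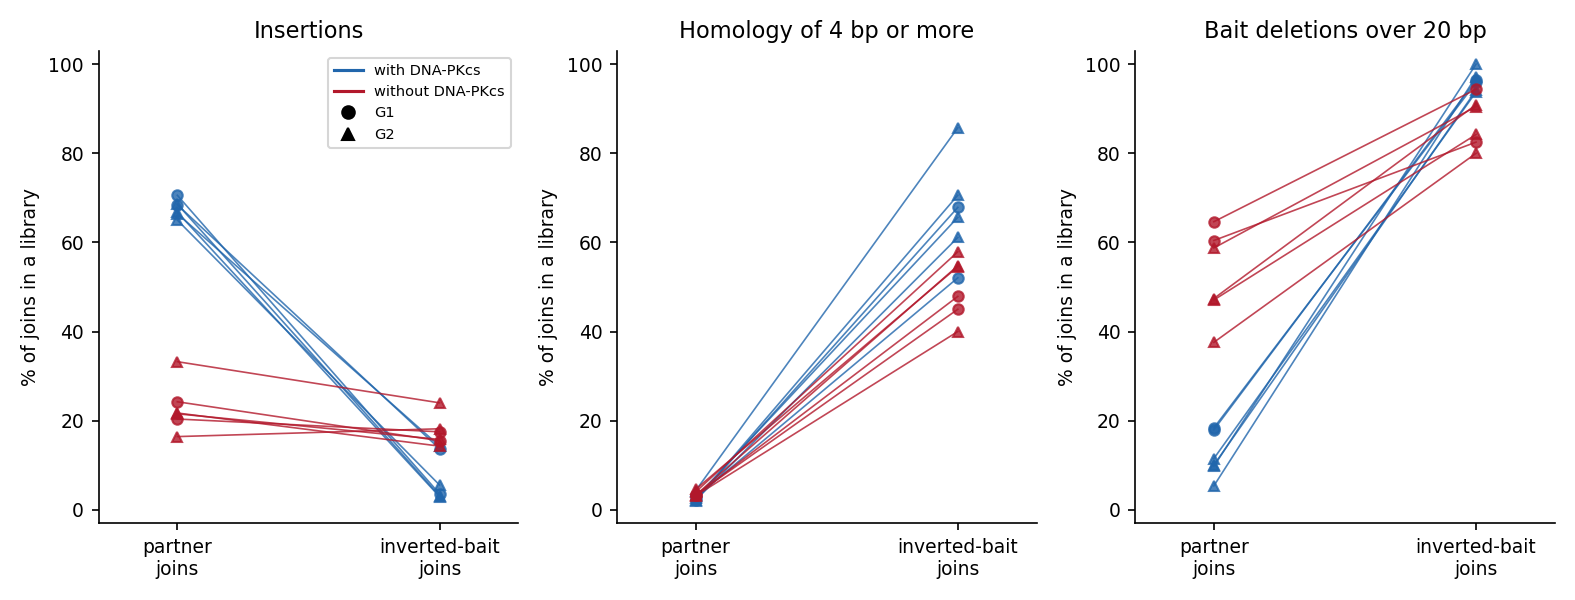
Percent of joins in a library (vertical axes) with an insertion (left), with 4 bp or more of homology (middle) and with a bait deletion over 20 bp (right), each line linking the partner joins to the inverted-bait joins of 1 library. Homology and bait deletions rise in 12 of 12 lines, and insertions fall in 11 of 12, steeply in the libraries with DNA-PKcs (blue) and little in those without it (red).

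The comparison of genotypes asks whether these joins depend on DNA-PKcs. Libraries with and without DNA-PKcs were compared within the 4 combinations of CtIP genotype and phase, by an exact two-sided permutation test (smallest possible p = 0.0139), adjusted over 11 measures. None of the 11 passed an adjusted p of 0.05. Without DNA-PKcs, homology of 4 bp or more was 49.1% against 65.4%, a difference of -16.2 percentage points (95% interval -30.9 to -5.04, p = 0.0139, adjusted p = 0.0764, exact permutation). Homology of 1 bp or more was 77.8% against 91.4% (-13.6, interval -23.0 to -4.80, p = 0.0278, adjusted p = 0.0764, exact permutation). Insertions were 17.3% against 7.56% (9.72, interval 1.84 to 16.8, p = 0.0278, adjusted p = 0.0764, exact permutation). Bait deletions over 20 bp were 87.4% against 96.2% (-8.80, interval -13.9 to -3.28, p = 0.0139, adjusted p = 0.0764, exact permutation). Each of these 4 had the same direction in 4 of 4 combinations. The share of substrate junctions was 5.18% against 6.83% (-1.65, interval -4.75 to 0.153, adjusted p = 0.153, exact permutation). Median deletions, symmetry and direct joins had adjusted p of 0.393 or more.

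Whether these measures passed depended on single choices. Without the wild type G2 replicate 2 library, the differences in homology of 4 bp or more (-13.2), homology of 1 bp or more (-14.7), insertions (10.8), bait deletions over 20 bp (-8.45) and share (-2.39) all passed (adjusted p = 0.0306, exact permutation). The same 5 passed with identical lines counted once. Counted only over joins without an insertion, the difference was -4.88 for homology of 1 bp or more and -11.5 for 4 bp or more (adjusted p = 0.393 and 0.191, exact permutation). With the joins past the primer left out, homology of 4 bp or more differed by -11.9, homology of 1 bp or more by -8.41 and insertions by 7.32. Bait deletions over 20 bp then differed by -5.21 (p = 0.208, adjusted p = 0.458, exact permutation) and the share by -2.08. No measure passed. Within the first run and within the other run, the difference was -7.04 and -22.2 for homology of 4 bp or more, -9.13 and -15.7 for homology of 1 bp or more, and 10.7 and 10.2 for insertions. It was -8.14 and -9.67 for bait deletions over 20 bp and -2.78 and -1.40 for the share, with too few libraries in either run for a test to pass. Among folded joins alone, homology of 4 bp or more was 69.6% ± 9.51 with and 58.8% ± 7.59 without DNA-PKcs, and insertions were 7.63% ± 5.85 and 12.6% ± 3.85 (n = 6 libraries each, not tested).

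The partner joins of the same libraries moved the other way in insertions. They had insertions in 67.6% ± 1.96 with and 22.9% ± 5.66 without DNA-PKcs, and 1 bp or more of homology in 17.1% ± 1.42 and 41.0% ± 6.44 (n = 6 each). For inverted-bait joins the insertion values were 7.20% ± 5.35 and 17.5% ± 3.46 and the homology values 91.8% ± 5.74 and 78.3% ± 7.32. A test of the difference itself, added after these values had been seen, compared inverted-bait minus partner joins between DNA-PKcs genotypes. Inverted-bait minus partner, the DNA-PKcs difference was 55.1 percentage points for insertions (interval 46.1 to 62.6). It was -37.6 for homology of 1 bp or more (adjusted p = 0.0198 each, exact permutation, 4 of 4 combinations). In inverted-bait joins alone these differences were 9.72 and -13.6, so most of each came from the partner joins. Inverted-bait minus partner, it was -17.1 for homology of 4 bp or more and -17.5 for direct joins (adjusted p = 0.0198 each, exact permutation). It was -50.3 for bait deletions over 20 bp, -35.9 for prey deletions over 20 bp and 21.0 for symmetric joins (adjusted p = 0.0198 each, exact permutation). In inverted-bait joins alone the last values were -8.80, -3.47 and 1.54, and that for direct joins was 3.89. These differences thus came mostly from the partner joins, unlike homology of 4 bp or more, with -16.2 in inverted-bait joins alone. Prey deletions and symmetry also use the prey position that chose the set, and bait deletions are tied to it. The tests of bait deletions, prey deletions and symmetry are therefore a description. The inverted-bait minus partner differences for homology rest in part on insertions in the denominator. With inserted joins left out, they were -4.90 for 1 bp or more and -7.84 for 4 bp or more (adjusted p = 0.0694 and 0.243, exact permutation). That for direct joins turned to 4.90. Median prey deletion (-8.56) and median asymmetry (-4.44) did not pass, nor did median bait deletion (-30.4, adjusted p = 0.0868, exact permutation).

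For CtIP A/A against the wild type form of CtIP, none of the 11 measures passed. Bait deletions over 20 bp were 88.7% against 94.9% (-6.15, interval -11.4 to -0.81, p = 0.0278, adjusted p = 0.306, exact permutation). Prey deletions over 20 bp were 87.0% against 96.9% (-9.91, p = 0.0556, adjusted p = 0.306, exact permutation). The interval of the difference was -0.84 to 4.86 for the share of substrate junctions, -10.5 to 4.55 for insertions and -17.23 to 12.04 for homology of 4 bp or more.

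G2 against G1 was compared within genotype by an exact permutation test (smallest possible p = 0.0123). Only G2 cells had RO3306, and the times in STI571 differed, so phase cannot be told apart from drug treatment. None of the 11 measures passed, and the lowest unadjusted p was 0.111 (exact permutation). The share of substrate junctions was 6.79% in G2 and 5.23% in G1 (difference 1.56, interval -1.81 to 4.51, adjusted p = 0.516, exact permutation). Prey deletions over 20 bp were 95.3% against 88.7%, higher in G2 in 4 of 4 genotypes (interval -1.72 to 16.4). Homology of 4 bp or more was 61.3% against 53.2%, also higher in 4 of 4 (interval -5.83 to 23.3). Insertions were 12.3% against 12.6% (interval -5.25 to 4.66). On the prey side the median deletion in G2 was 62.3 bp against 54.5 bp for G1. The first G2 replicates were all in the run with the higher shares and the longer median deletions, and that run holds no G1 library. Within the other run, G2 minus G1 was 0.339 percentage points for the share, 5.61 for prey deletions over 20 bp, 9.51 for homology of 4 bp or more and 2.29 for insertions, and 1.62 bp for the median prey deletion.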

How the data were processed

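Each deposited table lists 1 junction per line, giving where bait and prey align on substrate and read, as the authors' pipeline wrote it (base positions, other unit, no normalization), per the file headers. Per the labels' protocols, sonicated DNA was amplified linearly, then with a nested primer, cut with BstBI and sequenced on a MiSeq. Bowtie2 and mm10 are named by the submitters' processing notes. Tool versions, the junction caller and its filters are not given in the sources used here.

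Prey starts from 1936 to 2600 on the substrate were taken, with first coding base 1943, and partner joins from 2806 to 3470, with first coding base 2813. Overlap was bait end minus prey start on the read plus 1, and a negative value an insertion. Values per library were computed with pandas 2.3.3, numpy 2.4.6 and scipy 1.17.1 under Python 3.11.15, and plotted with matplotlib 3.10.9. The tests were exact permutation tests over libraries, checked on simulated data, with Benjamini-Hochberg adjustment and a threshold of 0.05. Lines were used as deposited. No read name was repeated, and repeat lines in position made up 8.67% ± 5.08 of the inverted-bait joins per library. Positions and pairs were named by their mean share over libraries. The joins, measures and rule were chosen with earlier results of these data known. Wilson intervals cover counting error only, and intervals of differences, found by inverting the permutation tests, rest on the spread between libraries. Alternatives were repeat lines, border trimming, windows, short alignments, thresholds, denominators, runs and each library left out. Groups follow the labels. Same-numbered replicates deviated together in part: correlations in 6 pairs ran from -0.172 to 0.378, with 3 over 0.1. The substrate's sequence and its place in the genome were not used here.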

Additional observations from a re-analysis of the deposited data

Results flagged for a closer look

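Among the 6 libraries without DNA-PKcs, the share of substrate junctions that were inverted-bait joins stood apart in CtIP A/A DNA-PKcs -/- G2 replicate 1, at 8.30%, with the other 5 libraries at 3.92% to 5.43%. It lies in the first sequencing run with the other first G2 replicates, and chance sets 1 sample apart in about 1 in 20 such groups. Its part in the comparisons of share is in the range over left-out libraries.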

How the results depend on the processing

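Differences below are in percentage points or, for medians and asymmetry, bp. The 6 tested differences between inverted-bait and partner joins kept direction and threshold under every alternative run. Those in bait deletion are tied to the choice of the set under each alternative, so their stability is not separate from that choice. For DNA-PKcs, measures that passed only under an alternative were, with identical lines counted once, share (-3.17), bait deletions over 20 bp (-9.65), homology of 1 bp (-14.9) and 4 bp or more (-18.0) and insertions (10.6), and, trimmed at the heptamer border, -8.80, -12.8, -17.1 and 9.34 for the last 4. Signs turned for prey deletions over 20 bp (4.89 in run 1, 3.24 at 50 bp), direct joins (-1.56 in run 1), and, with prey to 149 bp, prey deletion (-3.56) and asymmetry (-1.62).

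For the added inverted minus partner test, each run alone was too small to pass: run 1 and run 2 gave 55.9 and 54.7 for insertions, -34.2 and -39.1 for homology of 1 bp and -8.27 and -22.9 for 4 bp or more, -52.6 and -48.1 for bait and -29.9 and -36.8 for prey deletions over 20 bp, 23.1 and 21.3 for symmetric and -21.6 and -15.6 for direct joins. Prey deletions over 50 bp gave -6.56. With inserted joins left out, direct joins turned to 4.90 and homology gave -4.90 and -7.84. With prey to 149 bp, homology of 4 bp or more gave -12.7 and prey deletion, now passing, -17.4.

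For CtIP, with no measure passing, signs turned for prey deletion (0.812 without short alignments, 4 in run 1, 0.0625 with prey to 149 bp), bait deletion (0.562 with identical lines once, 4.19 without short alignments, 0.75 in run 1), prey deletions over 50 bp (0.511), asymmetry (0.312 without short alignments, 1.25 in run 1), direct joins (1.56 in run 1, 0.60 in run 2), homology of 1 bp (-1.10 in run 1) and of 4 bp or more (-1.18 with prey to 257 bp, -4.19 in run 2, -2.19 without inserted joins, -0.34 with prey to 149 bp). For G2 against G1 they turned for bait deletion (-1.31 without short alignments, -10.5 in run 2), bait deletions (4.10 over 50 bp, 1.58 with prey to 149 bp), insertions (1.10 trimmed, 2.29 in run 2) and homology of 1 bp or more (-0.387 in run 2). The cause was not tested.

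With 1 library left out, DNA-PKcs differences ranged from -2.39 to -0.907 (share), -5.98 to 0.130 (prey deletions over 20 bp), -11.2 to -7.09 (bait deletions over 20 bp), 8.32 to 12.4 (insertions), -15.9 to -11.3 and -20.3 to -13.2 (homology of 1 and 4 bp or more). The added test of bait deletion ranged from -35.7, passing without wild type G2 replicate 2, to -20.2. CtIP ranges were -5.75 to 2.25 (prey deletion), -6.69 to 6.75 (bait deletion), -4.56 to 0.562 (asymmetry), -1.51 to 1.27 (direct), -0.161 to 5.37 and -4.63 to 3.55 (homology), and G2 against G1 -2.69 to 7.81 (bait deletion) and -1.39 to 0.866 (insertions). In G2 the replicate number is also the sequencing run, and the runs differed. Run 1 and run 2 had mean shares of 8.01% and 5.40%, median bait deletions of 123 and 102 bp and median prey deletions of 68.5 and 55.3 bp. In G2 both median deletions were higher in replicate 1 than in replicate 2 in every genotype. Same-numbered libraries did not deviate together in every pair of genotypes. A block on the replicate number gave the same differences (-16.2 for homology of 4 bp or more and 9.72 for insertions without DNA-PKcs, adjusted p = 0.0859, exact permutation) and changed no call. It was not possible for G2 against G1, because G1 libraries carry no number. The 7 joins of wild type G2 replicate 2 limit every value that includes it.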
